A study of Mus musculus with 1824 samples.

Results

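Heart formation was followed here through 9 genes, 5 that encode transcription factors of the early heart field (*Nkx2-5*, *Isl1*, *Hand1*, *Hand2* and *Mef2c*) and 4 that encode proteins of the contractile apparatus (*Myl7*, *Myl4*, *Tnnt2* and *Actc1*). The genes were chosen by name, and all 9 were found among the 55487 genes counted. The libraries were Smart-seq2 RNA from single mouse cells, for some of which DNA methylation and chromatin accessibility were also read, whereas for the others only RNA was. The 1824 cells came from 19 plates of 96 wells, 11 from embryonic day (E) 7.5 and 8 from E8.5. Of the E7.5 wells 89.5% and of the E8.5 wells 89.7%, together 1634 cells, had at least 100000 reads and passed the limits on mitochondrial and ribosomal reads.

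The labels give the strain of every cell as CD1, the stage and the plate, and the same description of the embryo as tissue within a stage. The embryos were chimaeras, made by injecting embryonic stem cells that lack *Tet1*, *Tet2* and *Tet3* and carry an H2B-tdTomato reporter into C57BL/6J blastocysts, which were then carried by CD1 females. The labels do not say of a single cell whether it derived from the injected or the host lineage, nor through which antibody gate it was sorted. An animal is named for 4 of the E7.5 plates (embryos 1, 2, 4 and 5). Chimaeric embryos were otherwise pooled, so each stage counted as 1 sample, no test between the stages was possible, and the range over plates is the only spread given. Depth in these cells ranged from 100941 to 6162790 reads with a median of 678018, and 1 E7.5 plate (lane plate 5) kept 57 of its 96 wells.

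The heart arises from mesoderm that leaves the primitive streak and gathers under the head folds. Its first heart field builds the linear tube and its second heart field, marked by *Isl1*, adds cells to both ends. Regulators are switched on while the cells are still progenitors, and contractile genes follow as the cells become cardiomyocytes and begin to beat. Several of the regulators have other uses at these stages: *Hand1* acts in trophoblast and extraembryonic mesoderm, and *Mef2c* in endothelium and blood. *Tbx4*, a marker of the allantois, and *Bmp4*, a signal made by extraembryonic mesoderm and several other tissues, were used to separate heart from extraembryonic mesoderm.

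In the GRCm38 genome, the regulators were *Nkx2-5* (ENSMUSG00000015579) at chr17:26838664-26845009, *Isl1* (ENSMUSG00000042258) at chr13:116298281-116309689, *Hand1* (ENSMUSG00000037335) at chr11:57828705-57832818, *Hand2* (ENSMUSG00000038193) at chr8:57320983-57324633 and *Mef2c* (ENSMUSG00000005583) at chr13:83504034-83667080. The contractile genes were *Myl7* (ENSMUSG00000020469) at chr11:5896637-5898782, *Myl4* (ENSMUSG00000061086) at chr11:104550663-104595753, *Tnnt2* (ENSMUSG00000026414) at chr1:135836354-135852260 and *Actc1* (ENSMUSG00000068614) at chr2:114047282-114053548. *Hand2*, *Myl4* and *Actc1* overlap genes on the opposite strand, and since the strand setting of the counting was not stated, reads of the overlapping partners cannot be told apart. *Actc1* also shares much of its coding sequence with other actin genes such as *Acta2*, and how reads that match several genes were treated was not stated.

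The contractile genes were highest in the same few cells, described below. For *Myl7*, *Tnnt2* and *Actc1*, 200 bases before the transcription start are shown, 5′ to 3′ on the strand of the gene. They end at position -13 from the RefSeq start (GRCm38.p6). The window of *Myl4*, which had none of the motifs described next, is not shown. Capitals mark a CArG box, the binding motif of serum response factor, or a GATA site, searched as AGATAA or TGATAA on both strands, so that TTATCT is the second strand's form.
Myl7: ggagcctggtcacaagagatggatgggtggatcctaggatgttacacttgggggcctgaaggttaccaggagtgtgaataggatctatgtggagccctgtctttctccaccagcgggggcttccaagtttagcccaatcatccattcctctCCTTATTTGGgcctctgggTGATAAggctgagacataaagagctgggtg
Tnnt2: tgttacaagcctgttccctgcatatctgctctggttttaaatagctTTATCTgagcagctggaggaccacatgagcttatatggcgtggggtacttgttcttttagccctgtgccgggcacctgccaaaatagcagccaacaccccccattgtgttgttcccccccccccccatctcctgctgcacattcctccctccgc
Actc1: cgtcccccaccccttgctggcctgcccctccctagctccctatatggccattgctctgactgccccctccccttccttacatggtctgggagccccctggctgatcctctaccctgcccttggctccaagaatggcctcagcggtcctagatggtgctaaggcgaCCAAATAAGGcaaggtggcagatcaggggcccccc
The windows lie at chr11:5898795-5898994 (minus strand), chr1:135836122-135836321 (plus strand) and chr2:114052888-114053087 (minus strand). A CArG box was found in *Myl7*, at -61 to -52, and in *Actc1*, at -47 to -38, and in no other of the 8 members with a promoter entry, against 1.40% of 27025 mouse promoter windows. The search covered the 250 bases before the start in the members and in all windows, of which the 200 shown are a part. A GATA site was found in *Isl1*, *Hand2*, *Myl7* and *Tnnt2*, against 16.99% of all windows. These matches describe the letters only. Neither TATAAA (8.12% of windows, gene strand) nor a MEF2 site (0.518%) was found in the members' windows.

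The first question was how the levels of these genes compared between the stages. The contractile genes were higher at E8.5, by 0.71 (*Myl7*) to 2.84 (*Actc1*) on the log2 scale, whereas *Isl1*, *Hand1* and *Hand2* differed by at most 0.23. Single plates moved several of these values, with *Hand1* at -2.002 and *Hand2* at -0.81 without E8.5 plate 8, *Isl1* at -0.60 without E8.5 plate 4 and *Myl7* at -0.11 without E8.5 plate 7. Levels are in CPM, the reads of a gene scaled to library size, summed over all cells of a stage, and differences are log2 of the ratio with 1 CPM added. In such sums, fewer cells of a type and less RNA per cell cannot be told apart. Per the paper, chosen populations along the blood and endothelial path were sorted with antibodies. The mix of cells on a plate therefore need not be that of the embryo, in sums or in shares of cells. Clusters named for blood or endothelium, described below, made up 15.9% of E7.5 cells and 63.6% of E8.5 cells. The part of this mix in the stage differences was not tested. The intervals given are 95% exact Poisson or Clopper-Pearson intervals and cover counting error only, not the spread between cells or plates. The reads carried no molecular identifiers, so copies of the same molecule can count more than once. The Poisson intervals may therefore be too narrow even for counting error.

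*Actc1*, the cardiac actin of the thin filament, had 13.9 CPM (13.7 to 14.2) in the E7.5 sum and 105.5 CPM (104.6 to 106.4) in the E8.5 sum. *Tnnt2*, the troponin T that holds the troponin complex on the thin filament, had 4.12 CPM and 18.4 CPM, a difference of 1.92. *Myl4*, an essential myosin light chain of the embryonic heart and the atria, had 8.22 CPM and 21.2 CPM, a difference of 1.27. These were the members at least 2-fold higher at E8.5, 3 of the 7 that reached 10 CPM in either stage, and none of the 7 was 2-fold lower. Over the 9886 genes that reached 10 CPM, 6.99% were at least 2-fold higher and 8.23% at least 2-fold lower. *Myl7*, the regulatory light chain of atrial myosin, had 29.04 CPM and 48.3 CPM, a difference of 0.71 that fell short of that threshold.

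Among the regulators, *Mef2c*, a MADS-box factor, differed most of those above 10 CPM, with 52.9 CPM at E7.5 and 87.1 CPM at E8.5, a difference of 0.71. *Hand1* and *Hand2*, related basic helix-loop-helix factors, had 57.4 and 54.5 CPM, and 2.95 and 2.56 CPM. *Isl1*, a LIM homeodomain factor, had 18.8 and 15.9 CPM. *Nkx2-5*, the homeodomain factor that marks committed heart cells, was the lowest at E7.5, with 0.787 and 3.19 CPM, a difference of 1.23 below the minimum level for a call. The median log2 difference was -0.07 over the 5 regulators and 1.60 over the 4 contractile genes, beside 0.08 over all genes at 10 CPM or more.

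Other heart genes were counted the same way. Of 12 other contractile genes, 5 reached 10 CPM, and 4 of these were at least 2-fold higher at E8.5 (*Acta2*, smooth muscle actin, by 2.73, *Tnni1* by 1.17, *Ttn* by 1.10, and *Myl3* by 1.03) and none lower. Of 10 other regulators, 6 reached 10 CPM, of which 1 was higher (*Myocd*, a coactivator of serum response factor, by 1.91) and 2 were lower (*Mesp1*, which marks the earliest cardiac mesoderm, with a difference of -4.18, and *Fgf10*, a second heart field signal, with -1.95).

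The plates did not separate the stages for any of the 9 genes. Over all 9886 genes, 0.384% had every plate of E8.5 above every plate of E7.5, and 1.41% had the reverse. *Actc1* ranged from 0.552 CPM through a median of 3.79 to 140.7 CPM over the E7.5 plates, and from 0 through 26.4 to 471.6 CPM over the E8.5 plates. *Tnnt2* ranged from 0.173 through 1.04 to 37.4 CPM and from 0 through 1.95 to 75.4 CPM. The plates at the top were the same for all 4 contractile genes, lane plate 4 at E7.5 and plate 7 at E8.5. *Myl4* ranged from 0.243 through 1.69 to 85.2 CPM and from 0.177 through 5.25 to 76.9 CPM. *Myl7* ranged from 0.419 through 33.1 to 104.4 CPM and from 0.114 through 2.35 to 207.7 CPM. For *Myl7*, the plate median was therefore lower at E8.5 than at E7.5 although the summed level was higher. The SD between plates on the log2 scale was 1.91 to 2.72 for the contractile genes and exceeded the difference between stages for *Myl7* and *Myl4*, while for *Tnnt2* and *Actc1* the difference was just above it.

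Of the regulators, *Nkx2-5* peaked on the same plates as the contractile genes and the other 4 on other plates. *Hand1* ranged from 1.98 through 62.4 to 106.8 CPM over the E7.5 plates, with embryo 5 highest, and from 0 through 13.6 to 289.9 CPM at E8.5, with plate 8 highest. *Mef2c* ranged from 1.00 through 6.24 to 224.8 CPM (lane plate 1) and from 10.02 through 83.5 to 357.1 CPM (plate 5). *Isl1* ranged from 2.44 through 19.9 to 32.3 CPM and from 0.010 through 14.7 to 59.8 CPM (plate 4). *Nkx2-5* and *Hand2* did not exceed 10.03 CPM on any plate. *Nkx2-5* ranged from 0 through 0.263 to 2.66 CPM (lane plate 4) and from 0 through 1.55 to 9.73 CPM (plate 7), and *Hand2* from 0.276 through 2.38 to 6.68 CPM and from 0.057 through 0.896 to 10.03 CPM (plate 8).

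**Figure D1:**
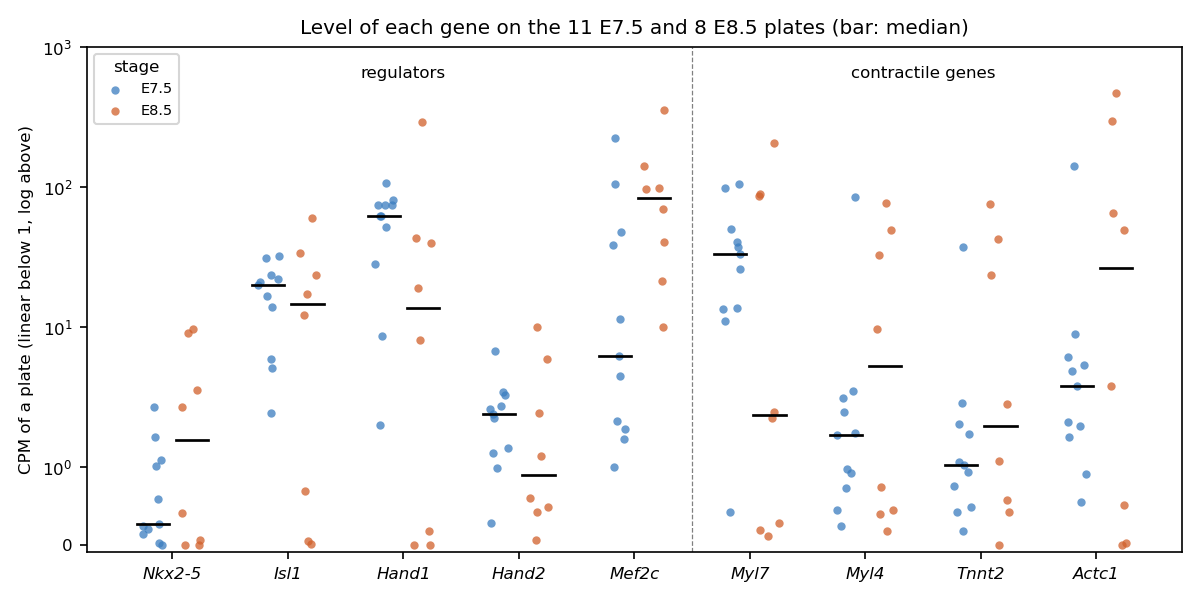
Level of each of the 9 genes on each plate, as CPM of the summed reads (vertical axis, linear below 1 and logarithmic above), with 11 E7.5 and 8 E8.5 plates as points and the median of each stage as a bar. The E7.5 and E8.5 points overlap for every gene, and the highest points of the 4 contractile genes belong to lane plate 4 (E7.5) and plate 7 (E8.5).

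Per kilobase of exon, the contractile genes spanned a wide range. The length was that of the merged exons of all annotated transcripts of a gene, from 0.59 kb for *Myl7* to 7.75 kb for *Tnnt2* among them. It can exceed the length of the expressed transcript, so the order of the genes may depend on the annotation. *Myl7* was highest at both stages, with 49.2 CPM per kb and a day later 81.8, while *Actc1* went from 8.59 to 65.2. *Hand1* had 28.7 and 27.3, far above its paralogue *Hand2* with 1.26 and 1.09. *Nkx2-5* and *Tnnt2* were lowest at E7.5, with 0.458 and 0.531.

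The second question was whether a summed level reflected many cells or few. To compare cells of different depth, each was thinned at random to 100000 reads and a gene was called detected with at least 1 read. *Myl7* was detected in 26.5% of E7.5 cells (23.7 to 29.4) but in 10.4% of E8.5 cells (8.27 to 12.98), the opposite order to its summed level. *Hand1* likewise went from 37.2% (34.2 to 40.4) to 14.2% (11.7 to 17.1) while its summed level differed little. *Mef2c* went from 20.5% (17.996 to 23.2) to 52.98% (49.2 to 56.8). For the other genes the stages were closer, with *Actc1* in 6.88% and 7.69% of cells, *Tnnt2* in 4.44% and 5.95%, *Myl4* in 7.62% and 6.10%, and *Nkx2-5* in 2.43% and 4.79%.

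*Isl1* was detected in 26.5% and 19.9% of cells and *Hand2* in 11.1% and 9.87%. At full depth the shares were higher, for example 37.2% and 15.4% for *Myl7*, 43.5% and 17.3% for *Hand1*, and 4.76% and 5.81% for *Nkx2-5*, with the same order of the stages for these genes. As a background, erythroid-like cells (median 958844 reads) had each member after thinning in 0 to 1.73% of cells, except *Mef2c*, which was in 37.0% of them.

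The contractile transcripts sat in very few cells. At E8.5 the 2 cells with the most of a gene held over 50% of its summed single-cell CPM for each of *Myl7*, *Myl4*, *Tnnt2* and *Actc1*, and the single highest cell held 33.1%, 29.7%, 30.7% and 46.7%. At E7.5 the same cell of lane plate 4 alone held 71.4% of *Myl4*, 64.3% of *Tnnt2* and 64.6% of *Actc1*. For *Myl7* at E7.5, 8 cells were needed to reach 50%. Regulators were spread wider, with 24 cells for *Isl1*, 14 for *Hand1*, 21 for *Hand2* and 64 for *Mef2c* at E8.5, and 49, 49, 33 and 30 at E7.5. *Nkx2-5* needed 3 cells at E7.5, fewer than *Myl7*, and 5 at E8.5.

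**Figure D2:**
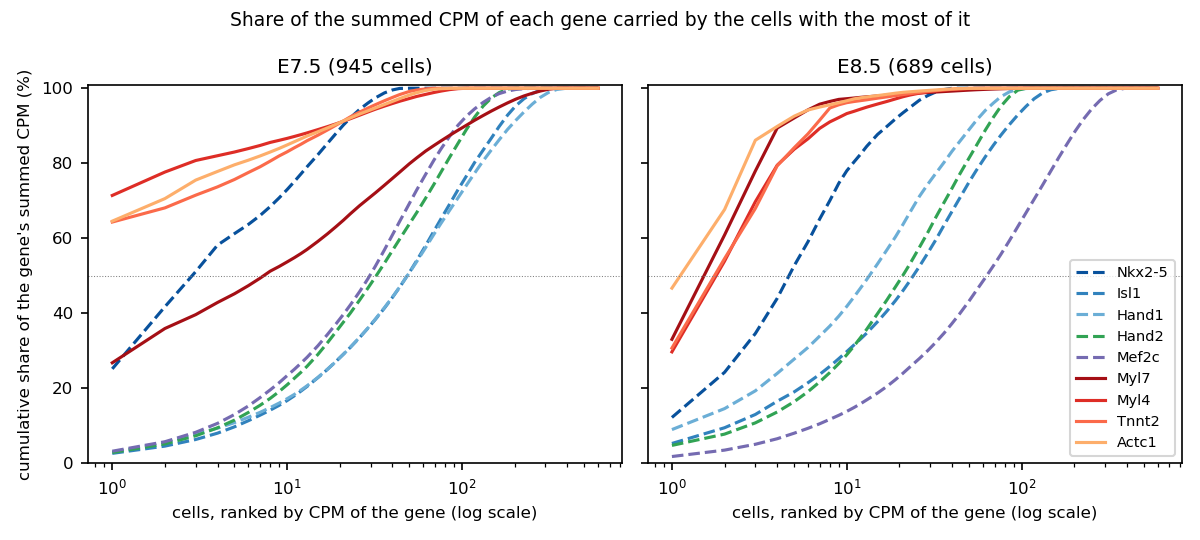
Percentage of the summed single-cell CPM of each gene (vertical axis) held by the cells with the most of it, against the number of those cells (horizontal axis, log scale), by stage. The curves of the 4 contractile genes rise within the first few cells at E8.5, where 2 cells hold over 50%, whereas *Mef2c* needs 64.

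At least 3 of the 4 contractile genes were detected together in 28 cells, 14 at E7.5 (1.48% of cells, 0.812 to 2.47) and 14 at E8.5 (2.03%, 1.12 to 3.39). All 4 were detected in 14 of them, 4 at E7.5 and 10 at E8.5. The 28 cells held 86.6% of the summed contractile CPM, 53.6% at E7.5 and 94.7% at E8.5. They also held 52.7% of *Nkx2-5*, but 6.35% of *Isl1*, 5.23% of *Hand1*, 7.82% of *Hand2* and 3.92% of *Mef2c*. By plate, E8.5 plate 7 gave 8 of them, plate 8 gave 3, plate 3 gave 2 and plate 4 gave 1, while at E7.5 lane plate 4 gave 4 and embryo 2 gave 3.

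In single cells among the 28, the 4 genes together ranged from 45.2 to 28103 CPM at E7.5 and from 46.6 to 97511 CPM at E8.5. The cell with the most contractile RNA, of E8.5 plate 3, had 66999 CPM of *Actc1*, 18893 of *Myl7*, 6932 of *Myl4* and 4687 of *Tnnt2*, with 300.1 CPM of *Nkx2-5* and no *Isl1* read. A cell of E8.5 plate 7 followed with 30043 CPM of *Actc1* and 22467 of *Myl7*. The first of these also had 8383 CPM of *Myh6*, a myosin heavy chain of the heart, and 3354 CPM of *Ttn*, which encodes the giant protein titin. The highest E7.5 cell, of lane plate 4, had 9988 CPM of *Actc1*, 8988 of *Myl7*, 6397 of *Myl4* and 2730 of *Tnnt2*, with 201.9 CPM of *Nkx2-5* and 32.6 of *Isl1*. Among the 28 cells, those below the 11 with the most had at most 655.97 CPM in total for the 4 genes. Over all cells, 6 at E7.5 and 10 at E8.5 had at least 1000 CPM in total, of which 3 and 8 were among the 28.

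**Figure D3:**
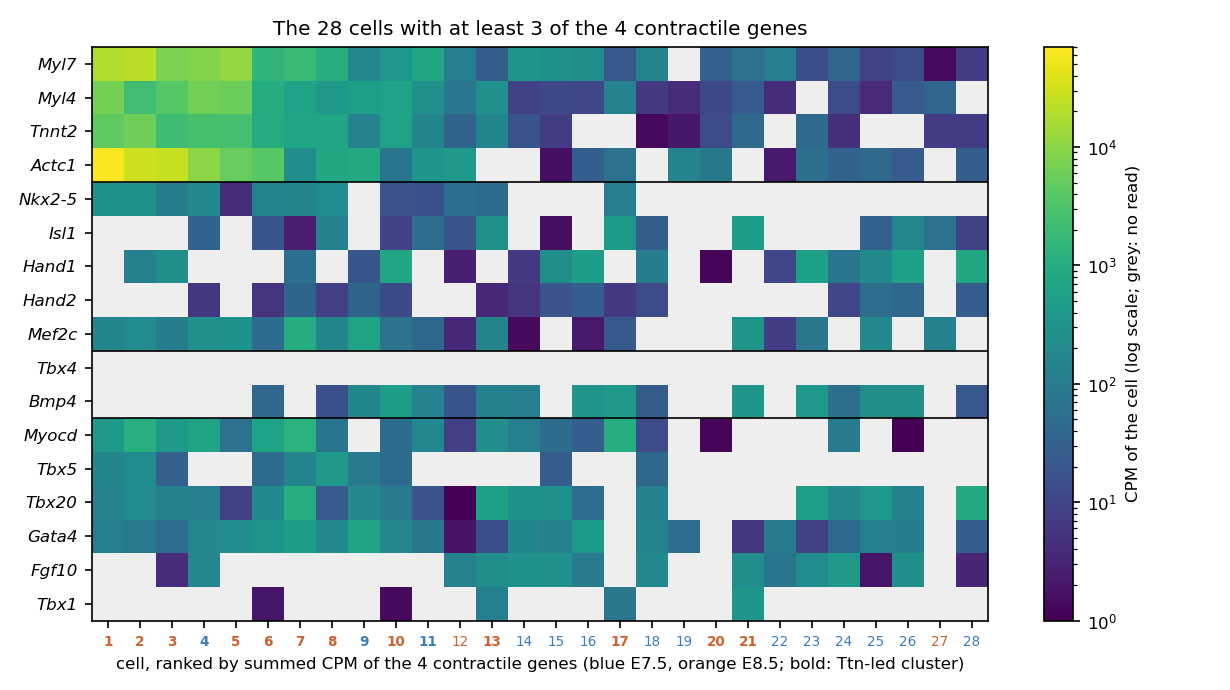
Level of the members, *Tbx4*, *Bmp4* and 6 other heart genes as CPM (colour, log scale, grey for no read) in the 28 cells with at least 3 of 4 contractile genes, ordered by their contractile CPM and numbered in blue for E7.5, orange for E8.5 and bold for the *Ttn*-led cluster. The 11 cells with the most have all 4 contractile genes, and the *Tbx4* row is empty throughout.

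Outside those 28 cells the stage difference of the contractile genes was another one. *Myl7* had 20.05 CPM in the remaining cells of E7.5 and 3.23 CPM in those of E8.5, and was detected in 25.5% (22.7 to 28.4) and 8.59% (6.59 to 10.97) of them. *Myl4* had 1.67 and 1.54 CPM and *Tnnt2* had 1.505 and 1.52 CPM, so that both were nearly level between the stages. *Actc1* had 3.495 and 12.3 CPM. Over the plates, *Myl7* in the remaining cells ranged from 0.419 through 21.1 to 98.1 CPM at E7.5 and from 0.114 through 2.16 to 15.0 CPM at E8.5, and these ranges still overlapped.

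The third question was in which cell types the genes were found. Cells were grouped by all other genes into 24 clusters, with the 9 members left out, and a cluster was given a name only where listed markers led it. The cells with most contractile RNA fell in an unnamed cluster of 62 cells (13 at E7.5 and 49 at E8.5) led by *Ttn*, *Myl3* and *Arg1*, which had 9 of 14 listed cardiac markers and also 8 of 9 markers of pharyngeal mesoderm, the tissue next to the heart tube that feeds it. It was the only cluster with at least 7 cardiac markers, a limit set after the clusters were seen. A cluster led by *Lum* came just below this limit, with 6 of 14. It was named for extraembryonic mesoderm and allantois, of which it had 4 of 8 markers. The levels per cluster are descriptions, and no cluster was tested against another.

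The *Ttn*-led cluster had the highest level of 6 members. *Actc1* had 1386 CPM there, *Myl7* 741.3 CPM, *Myl4* 390.8 CPM and *Tnnt2* 274.4 CPM. The next cluster had 113.1 CPM of *Actc1*, 74.4 of *Myl7*, 5.92 of *Myl4* and 21.7 of *Tnnt2*. *Nkx2-5* had 35.6 CPM there and 3.999 CPM in the next, and *Isl1* had 70.3 CPM there and 48.3 in the next. Without its single highest cell the cluster was still first for *Actc1* (947.02 CPM), *Myl7* (638.5 CPM), *Myl4* (346.99 CPM), *Tnnt2* (247.1 CPM) and *Isl1* (49.6 CPM). Over the 5 plates with at least 5 cells of it, *Isl1* ranged from 31.3 to 181.8 CPM and *Nkx2-5* from 15.9 to 69.4 CPM. The spread of *Isl1* reached below the 48.1 CPM of the allantois-like cluster and the 48.3 CPM of the cluster led by *Zfp975*, so these 3 clusters do not differ beyond it.

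Within the *Ttn*-led cluster the contractile cells and the rest differed in their regulators. The 15 cells of it with at least 3 contractile genes (3 at E7.5, 12 at E8.5) included 11 with *Nkx2-5* at 10 CPM or more, against 6 of the other 47. *Isl1* was at 10 CPM or more in 7 of the 15 and 21 of the 47. *Tbx1*, a regulator of pharyngeal mesoderm, was at that level in 3 of the 15 and 20 of the 47. *Gata4*, a zinc finger factor of heart and foregut, showed the reverse order with 12 of 15 and 14 of 47, as did *Myocd* with 12 and 3. *Mef2c* had 317.5 CPM in the 15 cells and 59.1 CPM in the 47.

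*Isl1* had no read in 4 of the 5 cells with the most contractile CPM. It was at most 131.3 CPM in the 11 of the contractile cells with the most. In 3 other E8.5 cells, with 137.04 to 466.7 CPM of contractile RNA, *Isl1* was at 271.3, 431.4 and 510.8 CPM. Those cells also had 126.6 to 421.7 CPM of *Bmp4*. A further E8.5 cell in this range, with 144.7 CPM of contractile RNA, had no read of *Isl1* or *Bmp4*. *Hand1* was uneven in the 11 cells, from no read in 6 of them to 712.7 CPM in a cell of E8.5 plate 8 with 498.5 CPM of *Bmp4*.

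The remaining 13 of the 28 cells were spread over 6 other clusters, 5 in the nascent mesoderm-like cluster, 4 in the one led by *Zfp975* and 1 each in 4 more. All but 2 of these were E7.5 cells, and *Myl7* made up over 50% of the contractile CPM in 5 of them. In these 13 cells *Hand1* was at 10 CPM or more in 9, *Nkx2-5* in 1 and *Mesp1* in 7. An E8.5 cell of plate 7 in the surface ectoderm and amnion-like cluster had all 4 contractile genes at 36.2 to 418.9 CPM. Over 11 heart genes, its levels were 2.48% to 7.36% (median 4.65%) of those in the pooled 4 highest cells of its plate, 1 of which stood in its row or column. A second cell of that plate had 0.503% to 4.39% (median 0.994%). Whether RNA carried over between wells played a part was not tested.

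*Myl7* was also found at E7.5 mostly without the other contractile genes. In the nascent mesoderm-like cluster (all E7.5 cells), led by *Mesp1* and *Mixl1*, it was detected in 56.5% of cells. Of 65 cells there with *Myl7* at 10 CPM or more, 63 had *Mesp1* at that level and 40 had *Hand1*, but 7 had *Myl4*, 11 had *Actc1* and 2 had *Tnnt2*. The median *Myl7* level in the cells with a read was 48.3 CPM. This cluster, the E7.5 cluster led by *B230312C02Rik* and the one led by *Zfp975* held 28%, 17.6% and 18% of all E7.5 cells with *Myl7*.

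*Actc1* was also found in megakaryocyte-like and extraembryonic mesoderm-like cells. In the megakaryocyte-like cluster (41 cells, all on E8.5 plate 5) it had 105.2 CPM and was in 26.8% of cells, up to 2364 CPM. None of the 10 such cells at 10 CPM or more had *Myl7*, *Myl4* or *Nkx2-5* at that level, and 8 had *Tnni1*, the slow skeletal troponin I of the embryonic heart. In the allantois-like cluster led by *Col1a1* and *Tbx4* (45 cells), 11 cells had *Actc1* at 10 CPM or more, of which 10 had *Acta2*, 10 *Hand1*, 7 *Tbx4*, 3 *Myl4*, 1 *Myl7* and none *Tnnt2*. In the cluster led by *Lum* (21 cells), 6 cells had *Actc1* at that level, of which 5 had *Tnnt2*, 2 *Myl7* and none *Myl4*. In the same cluster 9 cells had *Tnnt2* at 10 CPM or more, all with *Hand1* and *Acta2* and 8 with *Tnni1*.

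**Figure D4:**
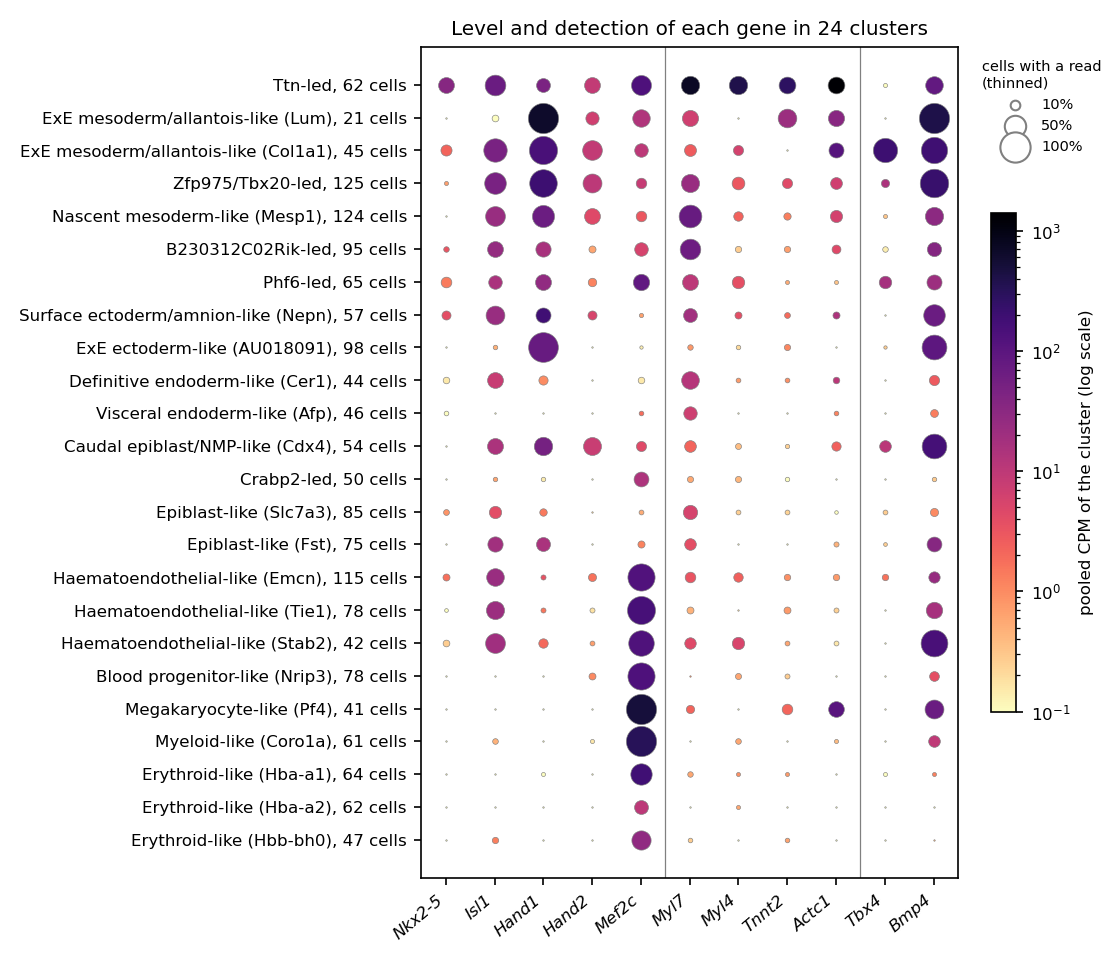
Level of the 9 members, *Tbx4* and *Bmp4* as CPM of the summed reads (colour, log scale) and share of cells with a thinned read (size of the point) in each of the 24 clusters, named or given by leading gene. The *Ttn*-led cluster is darkest for all 4 contractile genes and *Nkx2-5*, *Hand1* is darkest in the *Lum*-led cluster and *Mef2c* in the megakaryocyte-like one.

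*Hand1* was highest in the *Lum*-led cluster of extraembryonic mesoderm-like cells, at 650.7 CPM and in 100% of its cells. The *Zfp975*-led cluster of E7.5, which also led in *Tbx20*, *Bmp5* and *Msx2*, followed with 200.5 CPM and 83.2% of cells. It held 56.9% of the summed *Hand1* CPM of that stage. This cluster has no name, with 4 of 14 cardiac markers and 2 of 8 markers of extraembryonic mesoderm and allantois. The surface ectoderm and amnion-like cluster had 185.8 CPM but in 24.6% of cells, and 1 cell of E8.5 plate 8 alone had 2541 CPM. The allantois-like cluster had 149.9 CPM and 86.7% of cells. In extraembryonic ectoderm-like cells, the source of trophoblast, *Hand1* had 75.3 CPM and was in 96.9% of the 98 cells. Of 94 such cells with *Hand1* at 10 CPM or more, 65 had *Bmp4* at that level, 2 had *Isl1* and 0 had *Hand2*.

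*Hand2* was low throughout and shared several clusters with *Hand1*. Its highest levels were 10.53 CPM in the *Zfp975*-led cluster, 9.02 in the allantois-like, 8.86 in the *Ttn*-led and 7.69 in the caudal epiblast-like cluster. Ranges over plates for the first (4.94 to 18.6 CPM) covered all of these, so their order is not resolved. Of E7.5 cells with *Hand2*, 74.3% had *Hand1*, against 22.2% of *Hand1* cells with *Hand2*. At E8.5 the shares were 51.5% and 35.7%.

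*Mef2c* was highest in blood-like cells. Megakaryocyte-like cells had 502.1 CPM and myeloid-like cells 322.1 CPM, with reads in 100% of the cells of both. The *Ttn*-led cluster had 137.1 CPM, after the E7.5 erythroid-like cells (180.5 CPM) and the *Tie1*-led haematoendothelial-like cells (158.1 CPM). Clusters with a name of blood or endothelium made up 15.9% of cells at E7.5 and 63.6% at E8.5. They held 54.1% and 86.03% of the cells with *Mef2c*, and within them *Mef2c* was in 70% and 71.7% of cells. Among the remaining cells it was in 11.2% of E7.5 and 20.3% of E8.5 cells. The summed *Mef2c* level within these blood and endothelial-like cells was 202.9 CPM at E7.5 and 125.2 CPM at E8.5, the opposite order to that over all cells. The 2 E7.5 plates with the most *Mef2c*, lane plates 1 and 2, had 93.5% and 61.4% of their cells in these clusters.

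Cells with several regulators were counted next. Their limit is unlike that of 3 of 4 contractile genes, and *Isl1*, *Hand1* and *Mef2c* were each detected in more cells than any contractile gene. The counts for the regulators and the contractile genes are therefore not like for like. At least 3 of the 5 regulators were detected in 70 E7.5 cells (7.41%, 5.82 to 9.27) and 39 E8.5 cells (5.66%, 4.06 to 7.66). At E7.5, *Isl1*, *Hand1* and *Hand2* together were found in 32 of the 70. These cells were in the *Zfp975*-led (25), nascent mesoderm-like (22), *Ttn*-led (19) and *Col1a1*-led allantois-like (15) clusters, and the rest were scattered. Both limits were met by 14 of the 28 cells with at least 3 contractile genes, 6 of 14 at E7.5 and 8 of 14 at E8.5. Among all cells of these stages, the share with at least 3 regulators was 7.41% and 5.66%. Of the 14 cells that met both limits, 11 were in the *Ttn*-led cluster and none in the allantois-like one. The single cell with all 5 regulators was an allantois-like cell of E8.5 plate 3 with 653.6 CPM of *Tbx4* and no contractile read.

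Pairs of members were counted in the same way. At E8.5, of 33 cells with *Nkx2-5*, 42.4% had *Myl4*, 39.4% *Actc1*, 36.4% *Myl7* and 33.3% *Tnnt2*, beside 6.10%, 7.69%, 10.4% and 5.95% of all E8.5 cells. At E7.5, of 23 cells with *Nkx2-5*, 56.5% had *Myl7* and 13.04% (3 cells) each had *Actc1* and *Tnnt2*, beside 26.5%, 6.88% and 4.44% of all E7.5 cells. Of E8.5 cells with *Mef2c*, by contrast, 6.58% had *Myl4* and 9.86% *Myl7*. Of E8.5 cells with *Isl1*, 20.4% had *Myl7*, 10.2% *Actc1* and 9.49% *Tnnt2*.

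The last question was whether the contractile cells carried the extraembryonic mesoderm genes. *Tbx4* had no read in any of the 28 cells, thinned or at full depth, which allows a share of up to 12.3%, beside 4.47% of all 1634 cells. *Bmp4* was detected in 16 of the 28 (57.1%, 37.2 to 75.5), beside 32.99% of all cells. The interval for *Tbx4* thus includes the share in all cells, and at this number of cells a lower share was not detectable. In another random thinning, 1 of 29 contractile cells had a *Tbx4* read. With *Bmp4* included, the split was 16 cells with and 12 without either gene.

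*Hand1* cells divided otherwise. Of the *Hand1* cells at E7.5, 69.9% had *Bmp4* and 6.82% had *Tbx4*, and of 98 such cells a day later, 79.6% and 27.6%. In *Hand1* cells with *Tbx4*, *Tnnt2* was in 0 of 24 cells at E7.5 and 0 of 27 at E8.5, while *Isl1* was in 50% and 55.6%. An approximate upper limit for *Tnnt2*, taken as 3 divided by the number of cells, was 12.5% and 11.1%. This rule gives lower limits than the exact intervals used elsewhere, 10.7% in place of 12.3% for 0 of 28 cells. In *Hand1* cells without *Tbx4*, *Tnnt2* was in 8.23% and 12.7% and *Isl1* in 33.8% and 23.9%. With so approximate a limit, *Hand1* cells with and without *Tbx4* were not told apart by *Tnnt2*. *Nkx2-5* was in 12.5% of the 24 and 11.1% of the 27 cells with *Tbx4*, and in 1.52% and 9.86% of those without, too few cells to order them.

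Since 4 E7.5 plates came from named embryos, members could be compared between animals of 1 stage. *Hand1* was detected in 38.04% and 39.4% of cells in embryos 1 and 2 and in 64.8% and 65.9% in embryos 4 and 5. *Isl1* had the reverse order, with 38.04%, 34.04%, 9.89% and 12.5%. The share of extraembryonic ectoderm-like cells was 0 and 0% in embryos 1 and 2, and 54.9% and 42.05% in embryos 4 and 5. Without those cells *Hand1* was in 26.8% and 43.1% of the cells of embryos 4 and 5, on both sides of embryos 1 and 2, and *Isl1* in 19.5% and 19.6%, still below them. *Myl7* was in 32.6%, 36.2%, 20.9% and 19.3% of cells, and in 39.02% and 33.3% of embryos 4 and 5 without those cells. *Nkx2-5* was in 2.17%, 0, 2.20% and 0%, too few cells to order the embryos.

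**Figure D5:**
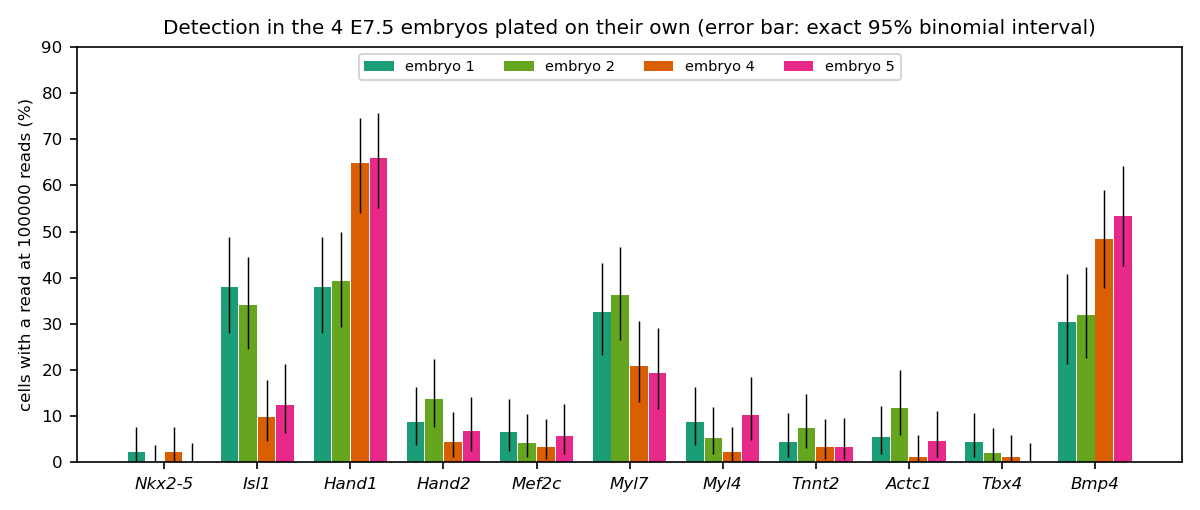
Percentage of cells with at least 1 thinned read of each member, *Tbx4* and *Bmp4* in E7.5 embryos 1, 2, 4 and 5, with 95% Clopper-Pearson intervals for counting error as bars. *Hand1* is higher in embryos 4 and 5 and *Isl1* in embryos 1 and 2.

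Genes whose pattern over the 24 clusters was most like that of a member were taken as those with the highest Pearson correlation of log2(CPM + 1), among 13061 genes with at least 10 CPM in a cluster. The points share libraries and include a large *Ttn*-led value, so these are descriptions. For *Nkx2-5* they were *Nkx2-6* (r = 0.91), *Acta1* (0.86) and *Myl2* (0.86). For *Isl1* they were *Raet1e* (0.89), *Crybg3* (0.83) and *Stc1* (0.83), and for *Hand1* they were *Zim1* (0.88), *Abca5* (0.87) and *Radil* (0.86). *Hand2* was nearest to *Hand2os1* (0.97), the gene on its opposite strand whose reads cannot be told apart from its own, and then to *Svep1* and *Hoxd1* (0.88 for both).

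*Mef2c* was nearest to *Dusp2* (0.91), *Fli1* (0.90), an ETS factor of blood and endothelium, and *F2rl3* (0.89). *Myl7* was nearest to *Myl1* (0.87), *Actn2* (0.79) and *Rbm24* (0.79), *Myl4* to *Hspb7* (0.89), *Smpx* (0.87) and *Dnm3os* (0.86), *Tnnt2* to *Csrp3* (0.91), *Wfdc1* (0.89) and *Hspb2* (0.89), and *Actc1* to *Tbx5* (0.80), *Myl9* (0.79) and *Myocd* (0.79).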

How the data were processed

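RNA was read by Smart-seq2 from single cells of E7.5 and E8.5 chimaeric embryos (75 bp single-end reads on a NextSeq), and the deposited values are raw counts of reads for each gene, which the authors aligned with HISAT2 2.1.0 to GRCm38 and tallied with featureCounts, per the methods and the submitters' processing notes. A subset of cells was not treated with GpC methylase, and its part was not tested. Cells with at least 100000 reads, at most 10% mitochondrial and at most 20% ribosomal protein reads were kept (1634 of 1824). Wells held sorted single cells and no doublet caller was run. Symbols and positions came from the annotation of the same build. Each stage counted as 1 sample, so the count models named for replicated data were not used as tests, and TMM (edgeR 4.0.16) and DESeq2 1.42.0 size factors served as alternative scalings only. CPM was computed from summed counts, detection after thinning to 100000 reads (seed 1), and clusters with scanpy 1.11.5 (2000 variable genes, 30 components, resolution 1). A class name required listed markers among the leading genes of a cluster. Other software was Python 3.11.15 and R 4.3.3. The code for calling genes was run on simulated counts with planted differences above the threshold and no spread between plates beyond counting error. This was a check of the code only and does not cover the spread between these plates. A gene was called when at least 2-fold different with 1 CPM added, among genes at 10 CPM or more. Named genes were the 9 members, *Tbx4*, *Bmp4*, 22 other heart genes and the 3 genes most alike over clusters for each member. The leading or partner genes of clusters were named after their values were seen, and a further gene is not reported here. The members and lists were chosen with earlier results of these data known.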

Additional observations from a re-analysis of the deposited data

Results flagged for a closer look

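Among the wells with reads that missed the limits on depth, mitochondrial or ribosomal reads, and that no comparison used, 3 had at least 3 of the 4 contractile genes after the same rule. These wells held 2316 reads of the 9 members together. No control level exists for such wells, and a single read is enough for detection, so the count is given as a value only.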

How the results depend on the processing

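The direction of the stage difference held for *Mef2c*, *Nkx2-5*, *Myl4*, *Tnnt2* and *Actc1* in 31 of 31 alternatives each, for *Myl7* and *Hand2* in 28, *Isl1* in 27 and *Hand1* in 24. The number of members at least 2-fold different was 3, 2 with at least 300000 reads or a pseudocount of 5 CPM, 4 (with *Mef2c*) as a mean of plate CPM, 5 (with *Mef2c* and *Myl7*) when single-cell CPM were averaged, and from 2 (without E8.5 plate 7) to 5 (without E8.5 plate 1) when plates were left out in turn. Cells with 3 of 4 contractile genes made up 1.71% of all cells, 0.918% (15 cells) with at least 3 reads after thinning, 3.18% (52 cells) with no thinning, and 1.29% (without E8.5 plate 7) to 1.82% without 1 plate. Cells with 3 of 5 regulators made up 6.67%, 2.51% and 12.55%, and 5.99% to 7.07% without 1 plate. Another seed for thinning gave 1.77% and 7.41%. Of the contractile cells, 0 to 2 had *Tbx4* over these settings. No cluster reached 7 cardiac markers at resolution 0.5 or with 4000 variable genes, so 0% of the contractile cells lay in such a cluster, against 53.6%. With no filter on low values 4.65% of genes were called, against 15.2%. Without E8.5 plate 8 the log2 difference of *Hand1* was -2.002. Leaving out E7.5 lane plate 4 raised those of *Actc1* to 4.69, *Myl4* to 3.05 and *Tnnt2* to 3.08, leaving out E8.5 plate 7 lowered them to 1.95, 0.68 and 1.20 and that of *Myl7* to -0.11, and *Mef2c* went from 0.22 (without E8.5 plate 5) to 1.79 (without E7.5 lane plate 1). Without the 14 cells with all 4 contractile genes, an alternative chosen after seeing the data, *Myl7* was at -2.36, *Myl4* at 0.16, *Tnnt2* at 0.11 and *Actc1* at 1.51. The cause of these changes was not tested beyond which plates or cells were left out. TMM and DESeq2 scaling moved no call. No paired analysis was possible because no result comes from a test and the stages share no replicate.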
